A study of Mus musculus with 26 samples.

Results

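The genes examined were 7 members of the Notch pathway: the receptors Notch1, Notch2 and Notch3, the DNA-binding effector Rbpj, and the target genes Hes1, Nrarp and Dtx1. They were chosen by name from 21887 protein-coding mouse genes, and all 7 were found in the gene table. For each gene, every H3K4me3 peak overlapping its span (mm10) or the 5 kb on either side was taken from 1 peak list of Early-B cells and 1 of Ebf1-null progenitors.

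H3K4me3, trimethylation of lysine 4 of histone H3, is found at the start sites of genes that are active or held ready for activity. The progenitors are mouse cells without Ebf1, a transcription factor that B cell specification requires. The Early-B cells descend from these Ebf1-/- progenitors and carry EBF1.ER, a fusion of EBF1 expressed from the MigR1 vector and activated by 4-O-Hydroxy-tamoxifen. They were kept for 2 days on OP9 stromal cells with SCF, FLT3-L and IL-7, so the EBF1 they hold comes from a vector and not from the Ebf1 locus. The culture of the progenitors and the age and strain of the donor animals are not given in the labels. Each group has 2 H3K4me3 samples and 2 input DNA samples but only 1 peak list, so no difference between the lists has a replicate check or a test. The labels name no Notch ligand in the culture of either group.

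Notch receptors are cut on binding a ligand of a neighbouring cell, and the freed intracellular domain enters the nucleus. There it binds RBPJ, which otherwise recruits repressors, and with Mastermind proteins switches on targets such as Hes1. Notch1 signalling directs lymphoid progenitors to the T lineage and away from the B lineage, whereas Notch2 is known for its role in mature splenic B cells.

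There were 48054 peaks in the Early-B list, of which 49.6% overlapped a progenitor peak by at least 1 bp, and 31414 peaks in the progenitor list, of which 77.2% overlapped an Early-B peak. Over all coding genes the Early-B list also tended to cover more sequence, so counts for the Notch genes are given beside those shares. Of 10 B-lineage marker genes, 8 have a start site in the reference table. Of these starts, 7 lay under an Early-B peak only, those of Blnk and Cd22 among them, against 4.3% of coding genes. That of Ebf1 lay under a peak in both lists. Of 12 stromal markers, 11 had an Early-B peak and 5 a progenitor peak in the span plus 5 kb, with 37754 and 11750 bp covered. Sparc, Postn and Lox were among the 6 with an Early-B peak only, a class of 8.47% of coding genes, and Dcn had a peak in neither list. The authors' −log10 p, which ranks peaks within a list, reached 35.0 (Early-B) and 15.5 (progenitors) at a stromal marker. The 35.0 was at Sparc, in a peak over no start site in the table, and the Early-B peak over the Sparc start had 7.48. Pdgfrb went the other way, with the 15.5 in progenitors against 6.245 in Early-B, and 4107 against 3220 bp covered. Of 12 T-lineage markers, 10 had a peak in both lists, against 64.5% of coding genes. Only 9 of the 12 have a start site in the table. It lay under a peak in both lists at 2, in Early-B only at 2 and in neither at 5. Of 15 housekeeping genes, all had a peak in both lists. H3K4me3 from stromal cells and from Early-B cells cannot be told apart in these lists, and its part in the results below was not tested.

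The promoter letters are shown for 5 genes because the peaks divide them: the start site lay under a peak in both lists at Notch1, Notch3, Nrarp and Rbpj, and under none at Dtx1. Each line gives the 250 bases before the annotated start site (RefSeq, GRCm38.p6), 5′ to 3′ on the gene's strand. Capitals mark matches to TGGGAA or its reverse complement TTCCCA, the core of the motif that RBPJ binds.
Notch1 (chr2:26503823-26504072, minus strand): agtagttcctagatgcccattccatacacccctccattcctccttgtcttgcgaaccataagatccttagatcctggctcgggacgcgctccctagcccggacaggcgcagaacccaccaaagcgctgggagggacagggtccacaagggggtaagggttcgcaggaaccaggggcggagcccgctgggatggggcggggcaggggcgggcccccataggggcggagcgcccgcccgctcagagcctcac
Notch3 (chr17:32166891-32167140, minus strand): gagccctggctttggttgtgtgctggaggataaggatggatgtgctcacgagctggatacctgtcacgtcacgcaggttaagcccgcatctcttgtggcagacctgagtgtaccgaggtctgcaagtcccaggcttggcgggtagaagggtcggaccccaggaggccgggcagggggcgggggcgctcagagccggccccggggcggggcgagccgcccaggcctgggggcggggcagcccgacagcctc
Nrarp (chr2:25180508-25180757, plus strand): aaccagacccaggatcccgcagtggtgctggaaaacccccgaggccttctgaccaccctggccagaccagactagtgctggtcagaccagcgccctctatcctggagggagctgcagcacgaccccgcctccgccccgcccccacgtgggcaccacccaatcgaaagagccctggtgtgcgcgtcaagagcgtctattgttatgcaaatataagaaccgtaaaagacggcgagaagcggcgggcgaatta
Rbpj (chr5:53590096-53590345, plus strand): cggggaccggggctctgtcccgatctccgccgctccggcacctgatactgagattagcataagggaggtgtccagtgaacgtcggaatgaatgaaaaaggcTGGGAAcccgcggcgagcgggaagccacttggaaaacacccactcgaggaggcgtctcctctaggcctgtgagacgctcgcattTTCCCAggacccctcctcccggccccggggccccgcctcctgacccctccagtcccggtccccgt
Dtx1 (chr5:120711670-120711919, minus strand): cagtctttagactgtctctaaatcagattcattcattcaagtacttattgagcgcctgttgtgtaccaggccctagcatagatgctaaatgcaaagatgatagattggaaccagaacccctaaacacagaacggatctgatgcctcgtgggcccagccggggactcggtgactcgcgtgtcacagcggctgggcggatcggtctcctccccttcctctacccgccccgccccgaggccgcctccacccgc

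The table held 7 windows for 6 of the genes, 300 bases each with 50 bases after the start. Hes1 was not matched. TGGGAA was found, on either strand, in the 2 overlapping windows of Rbpj and in no window of the other 5 genes, against 25.6% of all 32851 promoter windows. In the Rbpj window printed above, the matches begin at bases −149 and −65, where the start site is base 0 and the last base printed is base −1. The EBF1 motif, searched on both strands as its palindromic consensus, was in none of the 7 windows and in 0.904% of all windows. The motifs differ in letters and no matches overlapped. All 7 windows were rich in CpG, with 21 to 41 CpG dinucleotides per window against a median of 7.0 over all windows. Coding-gene windows whose start lay under a peak in both lists had a median of 22.0, and those under no peak had 3.0. Dtx1 had 26, so its window was as CpG-rich as those of the genes with a start-site peak, although no peak lay over it.

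Of the 7 genes, 6 had a peak in both lists, as did 64.5% of all coding genes. Dtx1 had peaks in the Early-B list alone, a class that held 8.47% of coding genes. None of the 7 was in progenitors only (1.76%) or in neither list (25.3%). Of the 6 genes with a start site in the table, 5 had it under a peak in both lists, against 52.3% of 17492 coding genes, and Dtx1 was in the class with the start in neither (41.5%). The Early-B list held 24 peaks at the 7 genes and the progenitor list 21.

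**Figure D1:**
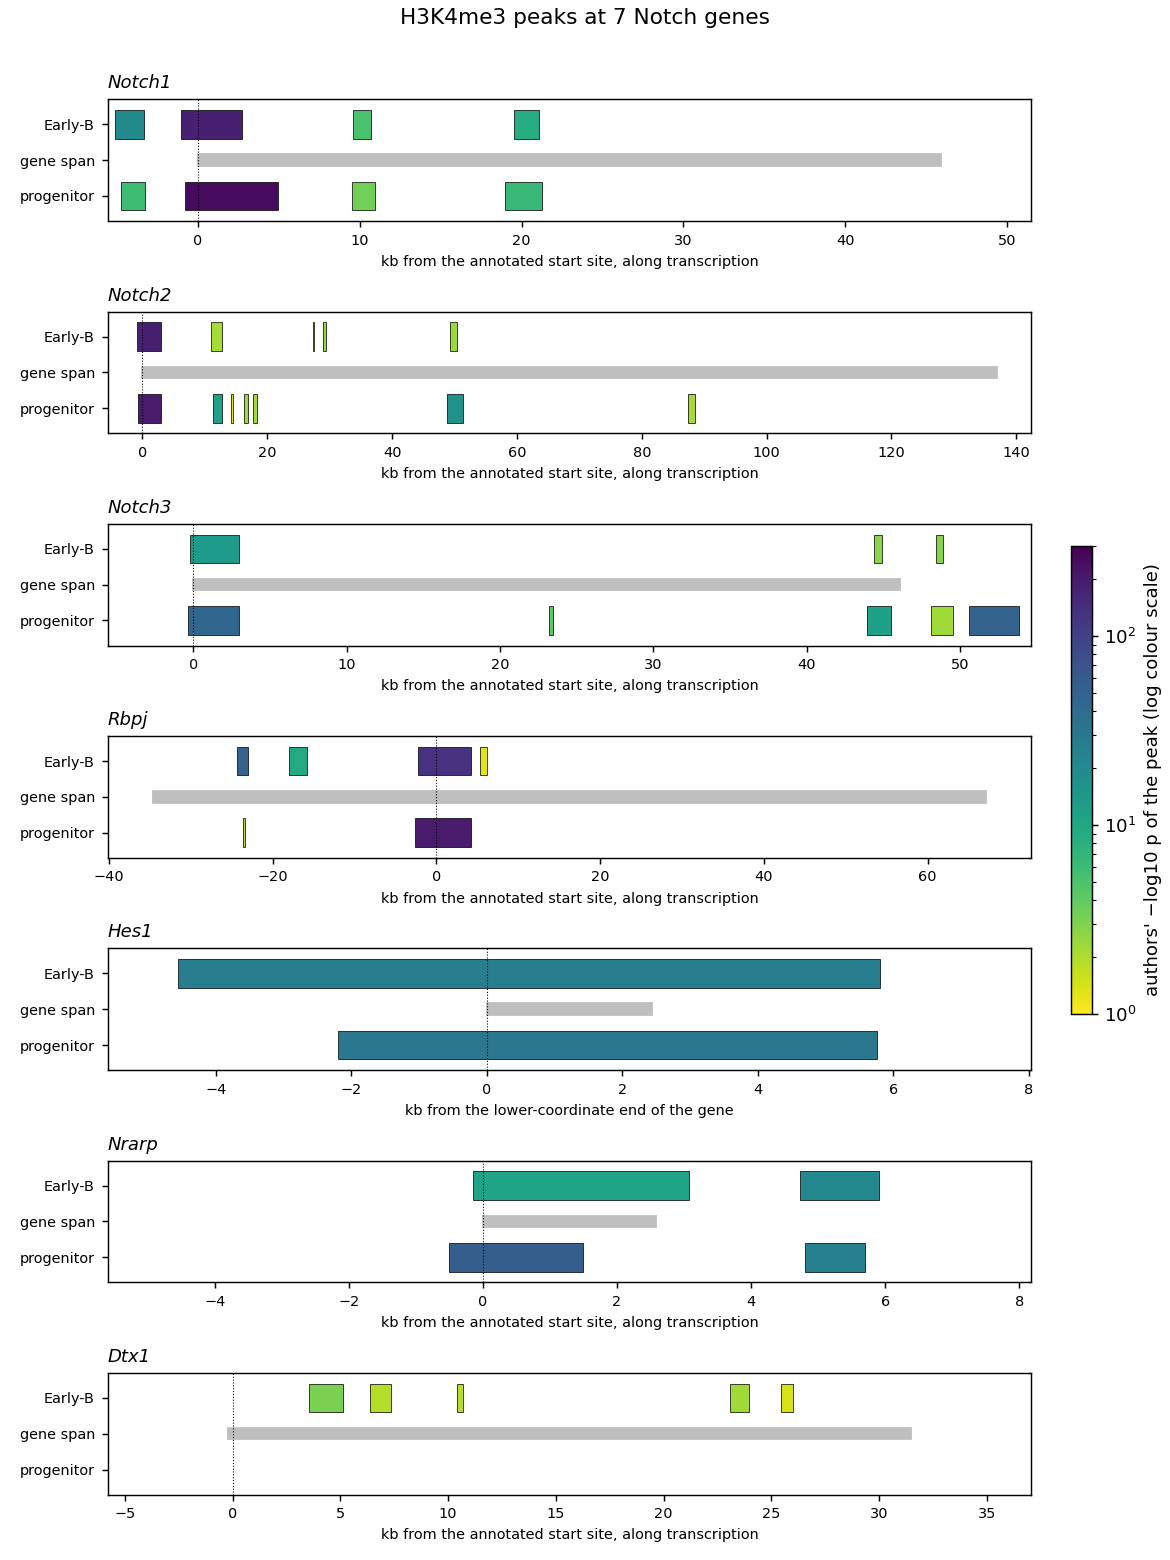
Peaks at each gene, drawn by distance in kb from the annotated start site along transcription (for Hes1, from the lower-coordinate end of the gene), with Early-B peaks above and progenitor peaks below the grey gene span; colour gives the authors' −log10 p on a log scale. The darkest blocks lie over the start sites of Notch1, Notch2 and Rbpj in both lists, and the progenitor row of Dtx1 is empty.

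Of the 24 Early-B peaks, 15 (62.5%) overlapped a progenitor peak, and of the 21 progenitor peaks, 16 (76.2%) overlapped an Early-B peak. The private peaks, 9 in Early-B and 5 in progenitors, all lay inside a gene. Of all member peaks, 16 of the 24 in Early-B and 12 of the 21 in progenitors did. The strongest private peaks by the authors' values had a −log10 p of 9.44 (Early-B, within Rbpj) and 4.25 (progenitors, within Notch3). Among private peaks, q was above 0.05 for 7 of the 9 and 4 of the 5. Neither share was computed over the private peaks of the whole lists. The authors' q was at most 0.05 for 13 of the 24 Early-B peaks (54.2%) and 15 of the 21 progenitor peaks (71.4%), against 66.8% and 66.6% of each whole list. At a −log10 p of 10 or more, all 9 Early-B and all 11 progenitor peaks overlapped a peak of the other list, as did 78.9% of such peaks over the whole Early-B list and 99.3% over the progenitor list. The partner could be weak, in these counts and in the shares over the whole lists. With that threshold applied to both lists, 7 of the 9 Early-B and 8 of the 11 progenitor peaks had one. The share over all peaks was not computed for that case.

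**Figure D2:**
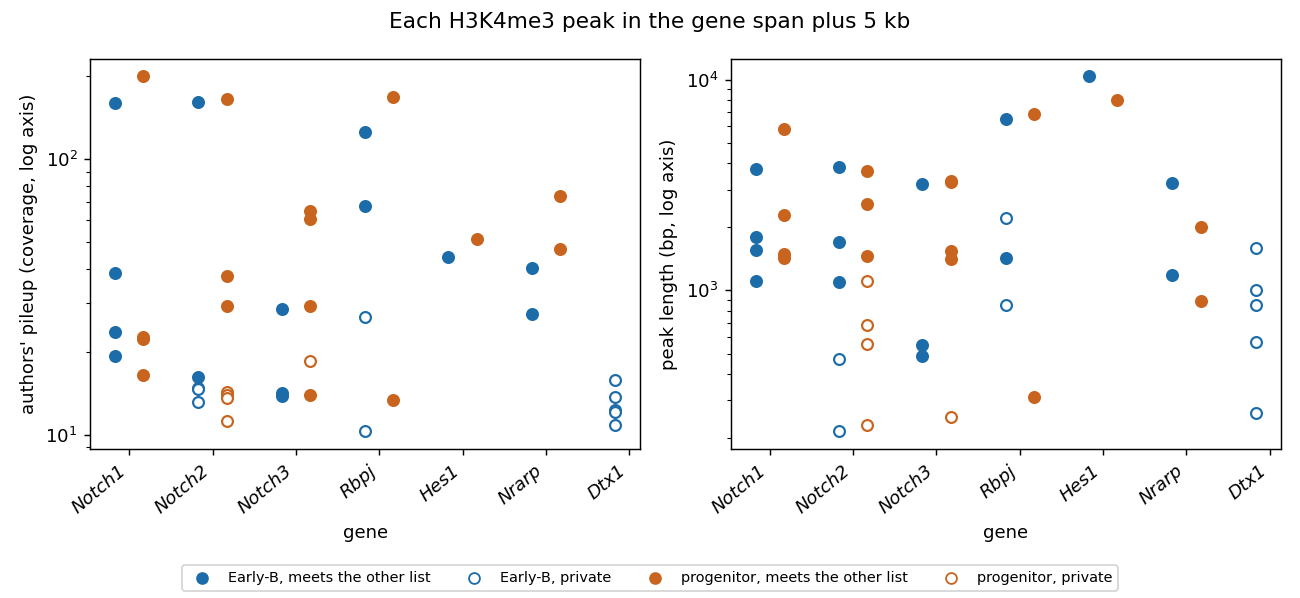
Pileup (left) and length in bp (right) of every peak by gene, on log axes; 1 circle is 1 peak, filled where it meets the other list and open where it is private. Pileup reached 161 in Early-B and 199 in progenitors, and the open circles, in Notch2, Notch3, Rbpj and Dtx1 only, reach a pileup of 26.8 and a length of 2205 bp, both at Rbpj.

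Notch1, the receptor needed for T lineage commitment, carried 4 peaks in each list, and each overlapped 1 peak of the other. Over the start site, the Early-B peak (chr2:26501088-26504872) was 3785 bp long with a pileup of 160 and a −log10 p of 183. The progenitor peak there (chr2:26498858-26504662) was 5805 bp long with a pileup of 199 and a −log10 p of 255. By −log10 p the former stood at percentile 97.1 of the Early-B list and the latter at percentile 96.2 of the progenitor list, so both were among the strong peaks of their list. The difference in length lay inside the gene: the peak reached 2734 bp downstream of the start in Early-B and 4964 bp in progenitors, and upstream it reached 1050 and 840 bp. It also took in the start of Gm35978, a lncRNA beside Notch1, in both lists. The ratio of lengths, 0.652, was at percentile 6.13 of the 14107 coding genes with a peak in both lists.

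Notch1 also had a peak upstream of the gene and a pair within it. The upstream peak was 1784 bp long in Early-B, with a −log10 p of 20.03, and 1491 bp in progenitors, with 5.87. The intragenic peak nearer the 3′ end of the gene, at chr2:26482745-26484300 in Early-B, had a −log10 p of 8.82 there and 6.37 in progenitors. At the other intragenic peak these values were 5.15 and 3.42. Apart from the start site, then, all Notch1 peaks were of moderate or low rank in their lists, between percentiles 36.3 and 71.1.

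Notch2 carried 5 Early-B and 7 progenitor peaks. Its start-site peak was nearly the same in extent, 3861 bp in Early-B (chr3:98012703-98016563) and 3682 bp in progenitors (chr3:98012803-98016484), the latter lying wholly within the former. Pileup was 161 and 165, and −log10 p was 183 and 199. By −log10 p the Early-B peak stood at percentile 97.1 of its list and the progenitor peak at percentile 87.6. The lists differed more within the gene, where both had a peak at the start of the lncRNA Gm40103 and another some way further along. At the former, −log10 p was 2.17 for Early-B cells and 11.6 for progenitors. The latter was 1092 bp long with 2.28 in Early-B and 2561 bp long with 17.1 in progenitors (chr3:98062333-98064893). The authors' q was above 0.05 for all 4 intragenic Early-B peaks of Notch2, and at most 0.05 for those 2 of the 6 in progenitors.

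Notch3, a receptor expressed in thymocytes and also in mural cells of vessels, had the weakest start-site peaks of the 3 receptors. The Early-B peak (chr17:32163945-32167124) was 3180 bp long with a pileup of 28.6 and a −log10 p of 13.2. The progenitor peak (chr17:32163913-32167231) was 3319 bp long with a pileup of 60.7 and a −log10 p of 46.3, and it contained the Early-B peak whole. Both stood near the same place in their lists, at percentiles 64.7 and 67.9 by −log10 p. Near the 3′ end, inside the gene, the progenitor list had a 1540-bp peak with a −log10 p of 11.6 and the Early-B list a 553-bp peak with 2.70. The strongest progenitor peak in the window of Notch3 (chr17:32113043-32116317, −log10 p 51.5) lay beyond that end, over the start of the lncRNA Gm38585. Its Early-B partner, with a −log10 p of 14.3, ended 979 bp outside the window, and the start of Gm38585 was not under it.

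All 3 receptors had less sequence under peaks in Early-B than in progenitors. The window of Notch1 had 8101 bp covered in Early-B and 10981 bp in progenitors, that of Notch2 had 7338 and 10277 bp, and that of Notch3 had 4222 and 7009 bp. Of the coding genes with a peak in both lists, 32.4% had more covered in progenitors. The ratios, 0.738, 0.714 and 0.602, were at percentiles 9.12, 8.22 and 4.78 of those genes. With no flank, which leaves out the peak over the start of Gm38585, Notch3 had 3505 bp in Early-B and 4775 bp in progenitors. With peaks of a fold enrichment of at least 5 only, Notch2 turned, with 3861 bp in Early-B and 3682 bp in progenitors. Nrarp then turned the opposite way, with 1184 and 2882 bp. At that fold Notch1 had 5432 and 5805 bp, and Notch3 had 0 and 3817 bp. The B-lineage, T-lineage, stromal and housekeeping markers, summed by list, each had more covered in Early-B.

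**Figure D3:**
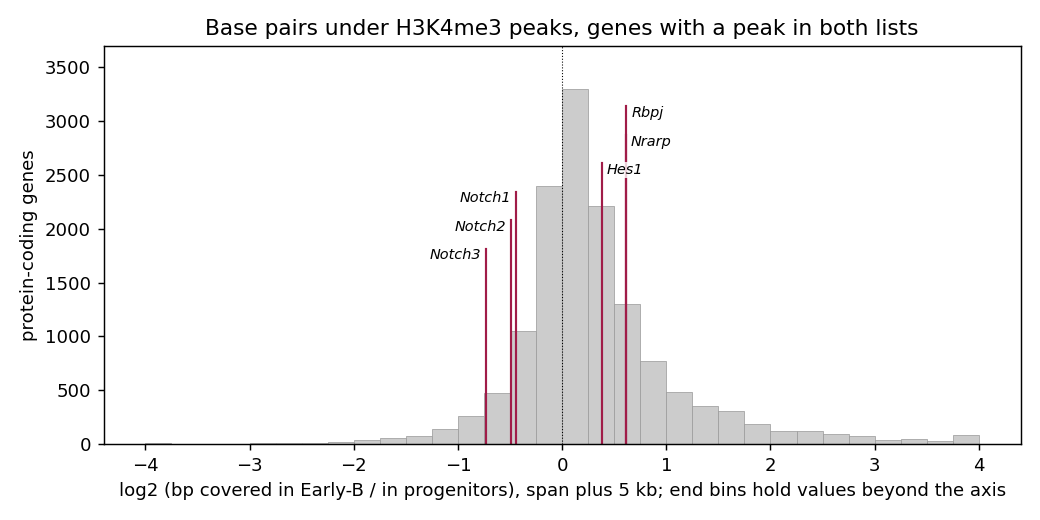
Histogram of log2 of the ratio of base pairs covered in Early-B to those in progenitors for the 14107 coding genes with a peak in both lists, with the 6 Notch genes as red lines. Notch1, Notch2 and Notch3 lie at −0.44, −0.49 and −0.73, left of 0, and Hes1, Nrarp and Rbpj at 0.38, 0.61 and 0.62, right of it; Nrarp and Rbpj nearly coincide.

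Rbpj, the DNA-binding protein through which all Notch receptors act on genes, had a broad start-site peak in both lists. It was 6478 bp long in Early-B (chr5:53588053-53594530, pileup 125, −log10 p 133) and 6831 bp in progenitors (chr5:53587734-53594564, pileup 168, −log10 p 199). By length these stood at percentiles 97.9 and 98.4 of their lists, and the progenitor peak contained the Early-B peak. The peak covers both annotated start sites, which lie well inside the annotated span of Rbpj.

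The lists differed in the part of the span upstream of these starts. At chr5:53565959-53567374 the Early-B list had a 1416-bp peak with a pileup of 67.4, a fold enrichment of 9.23 and a −log10 p of 51.2. The progenitor list had a 310-bp peak inside it, with a pileup of 13.4, a fold enrichment of 1.81 and a −log10 p of 1.90. At a −log10 p of 50 or more, 8991 Early-B peaks had a progenitor counterpart, which stayed below 2 for 40 of them (0.445%). In reverse this held for 1 of 9925 progenitor peaks (0.0101%). This count was chosen after the Rbpj peak was seen. Next to it an Early-B peak of 2205 bp, at chr5:53572352-53574556 with a −log10 p of 9.44, had no progenitor counterpart. No start site in the reference table lies under either peak. Through them Rbpj had 10952 bp covered in Early-B and 7141 bp in progenitors, although its start-site peak was the longer in progenitors.

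Hes1, a repressor of the basic helix-loop-helix family and a direct Notch target, lay under 1 very broad peak in each list. The Early-B peak (chr16:30060795-30071166) was 10372 bp long with a pileup of 44.2 and a −log10 p of 27.6. The progenitor peak (chr16:30063157-30071122) was 7966 bp long with a pileup of 51.3 and a −log10 p of 31.4. Both covered the whole 2440-bp gene and the lncRNA Gm32998 beside it, and the progenitor peak lay inside the Early-B peak. They ended close together on the higher-coordinate side, and the added length in Early-B was on the lower-coordinate side. In length they stood at percentiles 99.7 and 99.1 of their lists, but by −log10 p at 75.1 and 65.3. Hes1 thus had the longest peaks of the 7 genes without the highest pileup.

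Nrarp, whose product limits Notch signalling in a feedback loop, had 2 peaks in each list. Over the start site the Early-B peak (chr2:25180603-25183824) was 3222 bp long with a pileup of 27.4 and a −log10 p of 10.6, and covered the gene whole. The progenitor peak (chr2:25180252-25182243) was 1992 bp long with a pileup of 73.6 and a −log10 p of 55.6. By pileup they stood at percentiles 60.7 and 69.2 of their lists. The Early-B peak was the longer, and reached 3066 bp downstream of the start against 1485 bp. The other peak lay past the 3′ end of Nrarp, within the lncRNA Gm52547, with a length of 1184 bp and a −log10 p of 20.7 in the Early-B list and 890 bp and 25.8 in the other. In Early-B it was the stronger peak of the pair, and no start site in the reference table lay under it.

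Dtx1, the E3 ubiquitin ligase Deltex and a Notch target in lymphoid cells, was the only gene of the 7 without a peak in 1 of the lists. Its 5 Early-B peaks lay inside the gene, were 262 to 1581 bp long and had pileups of 10.8 to 15.8. Their −log10 p values were 1.403, 2.24, 1.80, 1.90 and 3.14 in order of position, and q was at most 0.05 for the last of these alone (chr5:120706553-120708133). That peak was the nearest to the start, with its nearer edge 3536 bp downstream of it. The nearest progenitor peak to the start site was 35477 bp away. In all, 94 coding genes (0.429%) had 5 or more Early-B peaks and no progenitor peak, a count made after the values of Dtx1 were seen. None of the Dtx1 peaks reached a q of 0.01, and at that threshold the gene had no peak in either list. The stromal markers with an Early-B peak alone had a highest −log10 p of 1.25 to 35.0 (Sparc, not over its start). The part of stromal cells in the Dtx1 peaks was not tested.

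**Figure D4:**
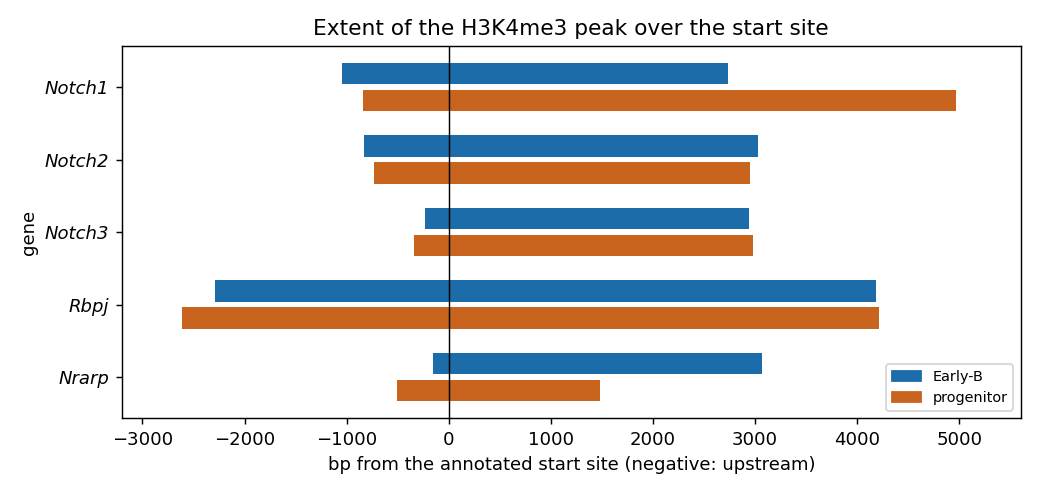
Extent of the peak over the annotated start site (first of 2 for Rbpj) at the 5 genes that have one in both lists, in bp from the start, negative upstream. The bars reach 2734 and 4964 bp downstream at Notch1 and 3066 and 1485 bp at Nrarp in Early-B and progenitors, and nearly coincide at Notch2, Notch3 and Rbpj.

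Breadth was then compared gene by gene. The strongest peak was longer in Early-B at 2 of 6 genes, Notch2 and Hes1, against 65.4% of coding genes with a peak in both lists. It was longer in progenitors at the other 4 (34.6%). At Notch3 and Nrarp the strongest peak is not at the same place in both lists. Compared at the start site, it was longer in Early-B at Notch2 and Nrarp, 2 of 5 genes (64.3%), and in progenitors at the other 3 (35.6%). By base pairs covered, Hes1, Nrarp and Rbpj had more in Early-B (67.6%) and the receptors more in progenitors. Of the sequence covered in either list, 53.2 to 76.8% was covered in both at the 6 genes, lowest at Notch2 and Nrarp and highest at Hes1, and the median over coding genes was 68.4%.

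Start-site peaks at these genes lay mostly downstream of the start. The downstream part was 72.3% of the Early-B peak at Notch1, 78.4% at Notch2, 92.6% at Notch3 and 95.2% at Nrarp, and 64.6% at the first start of Rbpj. In progenitors it was 85.5%, 80.0%, 89.7%, 74.6% and 61.8%. The medians over all covered coding starts were 61.9% in Early-B and 64.8% in progenitors. Each of the 5 genes but Rbpj in progenitors was above the median of its list.

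The genes most like Notch1 in the length and pileup of the strongest peak in both lists, 4 values over 2 lists, were Snx13 (Euclidean distance 0.0308 on the log10 scale) and Grb2 (0.0421). Those most like Hes1 were Sla and Tg (both 0.0329), which share 1 peak in each list, 10139 bp long in Early-B and 7482 bp in progenitors.

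The rest of the pathway was taken as a list of 59 genes, of which 58 had a peak in both lists (64.5% of coding genes) and Bcl11b had none. Of these 58 genes, 36 had the longer strongest peak in Early-B (62.1%), against 65.4% over all coding genes. At the start site, which the table gives for 48 of them, 40 were under a peak in both lists (52.3% of coding genes), 1 under an Early-B peak alone (4.3%), 2 under a progenitor peak alone (1.96%) and 5 under none (41.5%).

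Genes that cut, modify or work with the receptors were marked throughout. All 9 receptor processing genes, all 11 modifiers and all 11 nuclear cofactors with a start site in the table had it under a peak in both lists, against 52.3% of coding genes. Ncstn, of the gamma-secretase that frees the intracellular domain, had a strongest peak with a −log10 p of 196 among Early-B peaks and 284 among progenitor peaks. In the same order of lists, Fbxw7, which targets that domain for degradation, had 232 and 336, and Lfng, a glycosyltransferase that tunes the choice of ligand, had 198 and 295. Of the cofactors, the Mastermind gene Maml3 had 218 and 360 and the acetyltransferase gene Ep300 had 215 and 294. These genes were named for the highest values of their lists, and others were far lower: Aph1c, of the gamma-secretase too, had 7.30 and 40.8.

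Ligand genes and further targets were mixed. Of 7 ligands, Dll1, Dll4, Jag1 and Jag2 had the start under a peak in both lists, Dlk2 in progenitors only (−log10 p 18.4), and Dll3 and Dlk1 in neither. The start-site peak of Dll1 had a −log10 p of 52.9 (Early-B) and 83.8 (progenitors), and that of Dll4 had 7.97 and 47.3. Of 9 targets with a start site, 5 had it in both lists, Il2ra in Early-B only (16.6), Hes7 in progenitors only (179), and Ptcra and Bcl11b in neither. Hes7 also had 2 Early-B peaks in its window, the strongest with a −log10 p of 90.5, but none over the start. They covered 7966 bp, against 9363 bp under the progenitor peak. Il2ra likewise had progenitor peaks in its window, the strongest with 21.1, but none over the start. Among the targets with a peak in both lists, 4 of 11 (36.4%) had the longer strongest peak in Early-B, against 65.4% of coding genes, and 7 had it in progenitors. Myc (8141 bp in Early-B, 6984 bp in progenitors) and Ccnd3 (6452 and 3792 bp) were of the former. Il2ra (3768 and 2874 bp) was too. Gata3 (3715 and 5182 bp) and Tcf7 (2815 and 4593 bp), which encode T-lineage transcription factors, were of the latter. The strongest Early-B peak of Tcf7 was not the one over its start, which was 1706 bp long. Tcf7 had more covered in Early-B, 9041 against 8389 bp. Of the 10 T-lineage markers with a peak in both lists, 7 had the longer strongest peak in Early-B and 3 in progenitors. The strong peaks counted for Notch4 and Ptcra lay over the starts of the neighbours Gpsm3 and Pbx2, and Cnpy3, so a count by window alone would credit them to the wrong gene. The strongest peaks of Furin and Poglut1 lay over the starts of Fes and Timmdc1. Those of Snw1 and Dtx3, which have no start site in the table, lay over Alkbh1 and Slirp, and F420014N23Rik. All these genes are among the 58 compared by strongest peak. Jag1, Jag2, Aph1c, Gata3, Tcf7, Dlk2, Dll3, Dlk1, Il2ra, Hes7, Ptcra, Bcl11b, Notch4, Furin, Poglut1, Snw1 and Dtx3 were named after their values were seen.

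**Figure D5:**
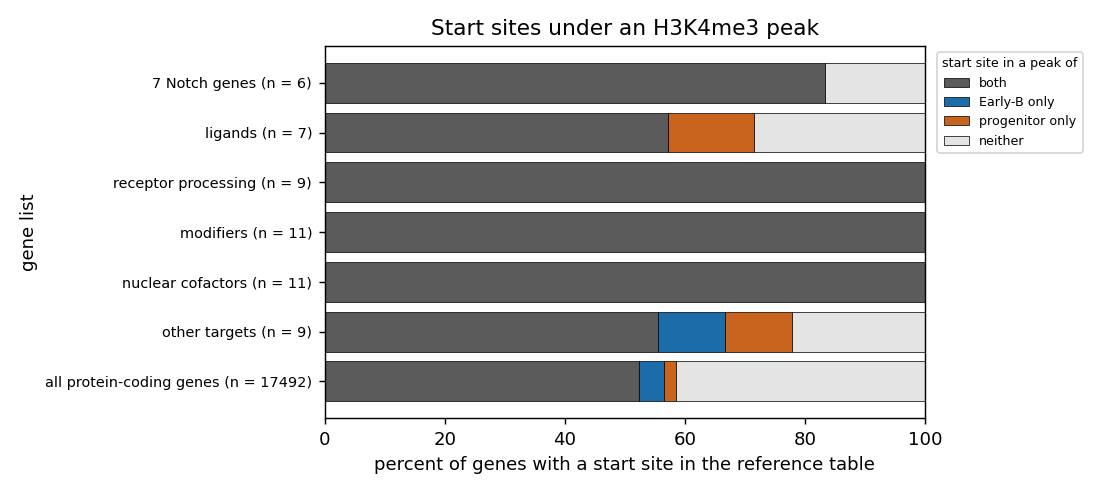
Share of genes, in percent of those with a start site in the reference table, whose start lay under a peak in both lists, Early-B only, progenitors only or neither, by gene list, with all 17492 coding genes at the bottom. Processing genes, modifiers and cofactors are at 100% in both lists. Among the Notch lists drawn, ligands and other targets hold the private starts. Starts under no peak are in those lists and, for Dtx1, among the 7 Notch genes.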

How the data were processed

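The authors deposited 1 H3K4me3 peak list per group, matched to its group by the list's name, and no source used here gives the pooling of replicates, the settings or the use of input. The tools named per the submitters' processing notes are MACS 1.4.3 and Bowtie 1.1.2, beside the builds GRCh38 and mm10, none with a stated role. The columns have the form of broad peaks from a later MACS, so the version used is uncertain. The pileup is a coverage signal as deposited by the authors, and how it was scaled between lists is not stated. The fold enrichment is the authors' ratio over a background. In 2 deposited columns the names are damaged, and their order and values identify the authors' −log10 p and then −log10 q. All these values are the authors' own, belong to single peaks and rank peaks within a list only. The lists hold no read counts, so depth is unknown.

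Gene spans come from RefSeq GRCm38.p6, the assembly of mm10, and start sites from a RefSeq promoter table of the same build. A peak was assigned to a gene when it overlapped the span plus 5 kb by at least 1 bp, and was shared when it overlapped the other list by at least 1 bp. A class (both lists, 1 list, neither) is a description. Percentiles are ranks among all peaks of a list or all coding genes. Python 3.11.15, numpy 2.4.6, pandas 2.3.3 and matplotlib 3.10.9 were used. Tested on made-up peaks at 3000 coding genes far from other coding genes, the steps returned all 3000 classes. Each gene had at most 1 peak per list, all of equal strength. Peaks of neighbours and several peaks per gene were therefore not tried. The alternatives were stricter thresholds, equal list lengths, other windows and other overlap rules.

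The members, the pathway and marker lists and the alternatives were chosen with earlier results of these data known. Named were the 7 genes, up to 4 genes per pathway list by −log10 p, up to 3 markers per list and class, and 2 genes most like Notch1 and Hes1. The −log10 p is the higher of both lists. A further gene that meets this rule is not reported here. Samples of microRNA sequencing, Ago2 immunoprecipitation and Early-T cells were not analysed here.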

Additional observations from a re-analysis of the deposited data

How the results depend on the processing

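Peak counts and gene classes depended mostly on thresholds, and the list with the longer strongest peak more on the window. Of 103 values under alternatives, 81 stayed within 1.5 times the reported count and 22 did not. The class of Dtx1 was lost when peaks were kept by a −log10 p from 10 upward, by a 1% FDR or by a fold from 5 upward, each leaving 0 genes in Early-B only. At that fold Notch3 became the 1 gene in progenitors only. Early-B peaks at the 7 genes fell from 24 to 9, 12 and 7 under these 3 thresholds and to 13 at equal list lengths, and progenitor peaks from 21 to 11 at the −log10 p and 8 at the fold. Shared Early-B peaks fell from 15 to 7, 9 and 5, and shared progenitor peaks from 16 to 8, 10 and 5. Fewer peaks enter under each. Of the other pathway genes, 7, 3 and 7 were in progenitors only under the 3 thresholds, 3 at equal list lengths, and 1 with no flank or a flank of 1 kb, against 0 as reported. The share of all coding genes in that class was not computed under these alternatives, so these counts have no background. The strongest peak was longer in Early-B at 2 genes and in progenitors at 4. These counts were 3 and 3 with no flank, with 1 or 10 kb and by base pairs covered, and 2 and 3 at the fold threshold. Compared at the start site they were 3 and 3, but Hes1, with no start site in the table, kept its strongest peak. Without Hes1 they were 2 and 3 at the start site. More was covered in progenitors at all 3 receptors, or at 2 at the fold threshold. The lists carry no depth, so how it limits the weak peaks is unknown. The receptor count and the comparison at the start site were chosen after seeing the data. No paired analysis was possible because each group has 1 list, which carries no replicate number, and for the same reason no replicate could be left out.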
